A study of Mus musculus with 6 samples.

Results

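The genes described here are 34 genes of cell division and DNA replication, taken by name from the 23863 genes of an RPKM sheet (reads scaled by transcript length and library size). Their names form a list of known cell cycle genes that was drawn up with earlier results of these data known, and the rule itself uses no measured value. All 34 were found, and 23 of them averaged 1 RPKM or more across the 6 libraries, the filter that left 10549 of all genes. The 23 held 11 of 11 replication genes and 12 of 23 division genes. mRNA was measured in bone marrow-derived dendritic cells (BMDC) of C57BL/6 mice aged 6 weeks, grown in 10 ng/ml GM-CSF and 1 ng/ml IL-4, selected with beads for CD11c, and matured with 100 ng/ml LPS for 24 h (mature DC, maDC). Mettl3 KO cells came from mice with Mettl3 fl/fl and a Cre driven by the CD11c promoter, which removes early exons of Mettl3 in cells that express CD11c, and Mettl3 WT cells from Mettl3 fl/fl littermates. Mettl3 is the methyltransferase that places N6-methyladenosine (m6A) in mRNA. The cells of each genotype were split into 3 parts and kept with actinomycin D, which stops transcription, for 0, 3 or 6 h, so that all 6 libraries shared the LPS treatment and 1 library stood for each genotype and time. The 3 times of a genotype were thus parts of 1 culture, the titles carry D3 for WT and D2 for KO with no meaning given, and every difference below is between 2 cultures with no replicate check and no p-value.

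A dividing cell first loads the Mcm helicase onto its origins, then copies its DNA with nucleotides made by Rrm1, Rrm2, Tyms and Tk1, and then condenses, aligns and separates the chromosomes. The genes of these steps are transcribed in waves. In resting and differentiated cells the DREAM complex holds them down, through E2F sites for many replication genes and through the cell cycle genes homology region (CHR) together with CCAAT boxes for many division genes. BMDC proliferate early under GM-CSF, and maturation with LPS is known as a step at which DC leave the cell cycle.

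Approximate depth, read from the step that 1 read makes in weakly expressed genes, was 17900000 to 21600000 reads per library. Synthetic ERCC transcripts, added in proportion to total RNA, gave 1 factor per library relative to WT at 0 h, which was 0.358 for WT at 3 h, 0.194 for WT at 6 h, and 1.27, 0.307 and 0.395 for the KO libraries at 0, 3 and 6 h. With these factors the median gene of WT had 19.1% of its mRNA left at 3 h and 8.8% at 6 h. For KO these shares were 12.7% and 15.1%, so that the scaled amount at 6 h lay above that at 3 h and the KO library at 6 h stood apart. Levels are therefore given as log2 ratios relative to the median gene (log2 of RPKM plus 0.1), and half-lives on the ERCC scale. On RPKM the log2 ratio of KO to WT of that median gene was 0.02 at 0 h and 0.09 at 6 h, and on ERCC-scaled amounts it was 0.36 and 1.11. All 11 mature DC markers looked at (among them Cd74, Ccr7 and Fscn1) were expressed, with a sum of 14816 RPKM in WT and 13635 RPKM in KO at 0 h, and 0 of them differed by 1.5-fold or more between the genotypes at that time. Whole-gene Mettl3 values do not check the KO label, because only early exons are removed.

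The promoters show the sequences that set the division genes apart from the replication genes. RefSeq windows (GRCm38.p6, 250 bases before to 50 after the annotated start) were at hand for 30 of the 34 genes, and Aurkb, Ccna2, Mcm4 and Stmn1 had none. The CHR word TTTGAA, on either strand, lay in the window of 14 of 20 division genes (70%) and of 1 of 10 replication genes (10%, Mcm2), against 20.2% of all 27025 genes with a window. The E2F-like words GCGGGAA or GCGCGAA, on either strand, were the other way round, with 5 of 10 replication genes (50%; Mcm3, Mcm5, Mcm6, Mcm7 and Rrm1) and 1 of 20 division genes (5%, Cdk1) against 6.86% of all genes. CCAAT on either strand was in 85% of the division and 80% of the replication windows, against 41.1% of all genes. CHR and CCAAT were together in 70% of the division windows, against 7.97% of all genes, and words of different motifs shared bases in 1 of 32 windows (2 genes have 2 starts). A match of letters is a description and not a shown binding site.

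The stretches given here are those that end at the annotated start, or short of it where GENCODE places the gene's start further upstream, for 4 division genes with CHR words, 2 replication genes with E2F-like words and Birc5, whose window has none of the words. Capitals mark the words (TTTGAA or its reverse complement, CCAAT or ATTGG, and the E2F-like words or their reverse complements), 5′ to 3′ on the strand of the gene. The positions are chr4:118437353-118437463 (minus strand) for Cdc20, chr10:69352939-69353032 (minus strand) for Cdk1, chr11:99024190-99024309 (minus strand) for Top2a, chr7:135716380-135716499 (minus strand) for Mki67, chr1:128359706-128359825 (minus strand) for Mcm6, chr7:102441575-102441694 (plus strand) for Rrm1 and chr11:117849117-117849236 (plus strand) for Birc5.
Cdc20: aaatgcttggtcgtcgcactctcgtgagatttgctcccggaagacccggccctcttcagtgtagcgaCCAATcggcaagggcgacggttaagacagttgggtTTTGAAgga
Cdk1: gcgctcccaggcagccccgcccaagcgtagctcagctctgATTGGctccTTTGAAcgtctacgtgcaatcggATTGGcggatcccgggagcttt
Top2a: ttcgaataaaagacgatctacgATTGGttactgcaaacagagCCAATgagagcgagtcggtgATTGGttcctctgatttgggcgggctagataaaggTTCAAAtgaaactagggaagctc
Mki67: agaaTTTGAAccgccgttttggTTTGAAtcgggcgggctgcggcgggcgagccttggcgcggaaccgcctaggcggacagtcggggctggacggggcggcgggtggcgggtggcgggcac
Mcm6: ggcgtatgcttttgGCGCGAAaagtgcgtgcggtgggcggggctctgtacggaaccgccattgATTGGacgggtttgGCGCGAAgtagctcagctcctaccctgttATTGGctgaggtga
Rrm1: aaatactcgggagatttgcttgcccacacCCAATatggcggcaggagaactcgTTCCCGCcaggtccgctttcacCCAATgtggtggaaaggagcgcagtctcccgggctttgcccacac
Birc5: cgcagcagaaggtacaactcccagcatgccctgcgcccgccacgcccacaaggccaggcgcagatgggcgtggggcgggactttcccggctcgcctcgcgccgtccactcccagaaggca
Counted from the annotated start, with negative positions before it, Cdc20 has a CCAAT word from -53, a CHR word from -18 and a CCAAT word from -8 that lies outside the printed stretch. Mcm6 has E2F-like words from -106 and -43, CCAAT words on the other strand at -57 and -14, and a further E2F-like word at 25, inside the gene.

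**Figure D1:**
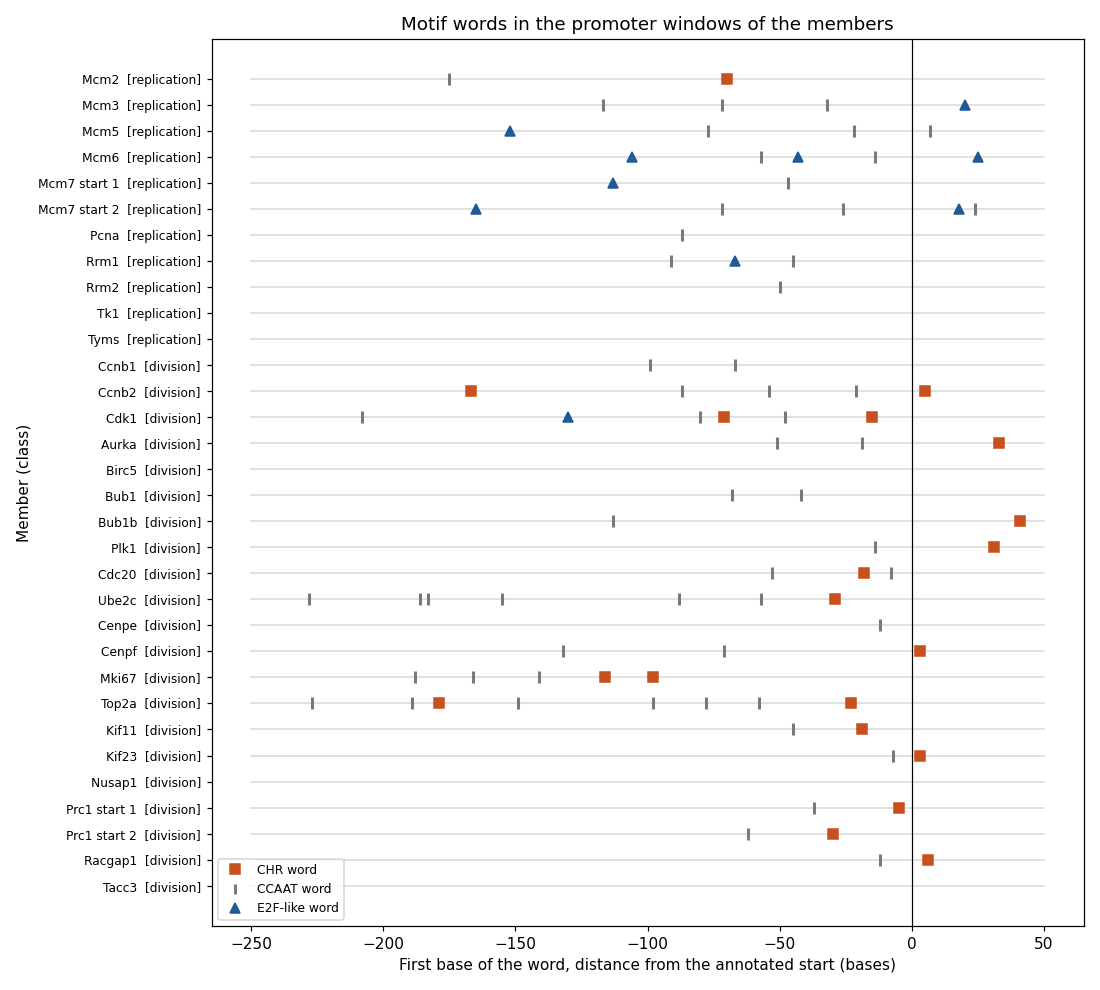
Motif words in the promoter windows of 30 members, drawn by their distance in bases from the annotated start (x axis), with 1 line per window (y axis, member and class). CHR words (squares) fall almost only on lines of division genes and E2F-like words (triangles) on those of replication genes, while CCAAT words (bars) are in both classes.

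Before actinomycin D all 11 replication genes differed by less than 1.5-fold between the genotypes, and 4 division genes stood 1.5-fold or more higher in KO. These were Birc5, Aurka, Cdc20 and Ube2c, 4 of the 23 members that passed the filter, where 4.46% of all tested genes were higher in KO by that size. None of the 23 was 1.5-fold or more lower in KO (0 of 23, beside 2.92% of all tested genes). The median log2 ratio was 0.08 for the 11 replication genes, 0.36 for the 12 division genes and 0.17 for all 23, with 6 of 11 and 10 of 12 above the median gene. For all 23 the median was 0.53 on the ERCC scale and 0.03 relative to total RPKM. The filter took part in these counts, since Ccna2, Aurka and Cdc20 passed it only through KO (means of 0.942, 0.736 and 0.886 RPKM over the WT libraries and of 1.29, 1.32 and 1.55 RPKM over the KO libraries) and Aurkb only through WT (1.25 and 0.981 RPKM). The counts and medians are therefore a description, and the values of all 23 division genes, filtered or not, stand with the genes below the filter.

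Licensing genes encode the Mcm2-7 ring, the helicase that opens the DNA at the fork. Mcm6 was the highest of them at 23.3, 7.41 and 3.63 RPKM for WT at 0, 3 and 6 h, against 25.5, 8.35 and 3.89 RPKM in KO. Mcm3 was at 13.7, 4.68 and 2.23 RPKM in WT against 16.2, 6.39 and 3.22 RPKM in KO. Mcm7 was at 11.0, 5.35 and 3.61 RPKM in WT against 11.1, 5.25 and 4.22 RPKM in KO. The 3 genes were thus at nearly the same level in both genotypes before the drug and lost more than the median gene in both. Mcm4 was at 9.09, 3.29 and 1.32 RPKM in WT against 10.4, 3.86 and 2.17 RPKM in KO. Mcm5 was at 7.70, 4.11 and 2.37 RPKM in WT against 8.29, 5.34 and 4.33 RPKM in KO. Mcm2 was at 5.85, 2.48 and 1.25 RPKM in WT against 5.83, 2.50 and 1.72 RPKM in KO. Per length the 6 subunits of a ring that holds 1 copy of each differed by 3.98-fold in WT and 4.36-fold in KO at 0 h, with Mcm2 the lowest in all 6 libraries and Mcm6 the highest in all but the KO library at 6 h, where Mcm5 was. The log2 ratios of KO to WT at 0 h ran from -0.03 (Mcm2) to 0.21 (Mcm3). Exons of Mcm7 overlap those of Ap4m1 and Cops6 on the other strand and the microRNA genes Mir25 and Mir93, so its level is uncertain.

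Nucleotide supply and fork genes held the highest member and the one with the most unusual course. Pcna, the sliding clamp of the replicative polymerases and a DNA repair factor, was at 70.3, 39.0 and 13.4 RPKM in WT against 68.7, 39.7 and 25.6 RPKM in KO. Tyms, thymidylate synthase, was at 8.04, 8.10 and 14.3 RPKM in WT against 11.6, 5.94 and 8.08 RPKM in KO. Its RPKM in WT was higher at 6 h than at 0 h, alone among the 23 members, and RPKM is a share of the mRNA that is left. Rrm1, the large subunit of ribonucleotide reductase, was at 7.73, 3.86 and 1.68 RPKM in WT against 7.44, 3.26 and 2.42 RPKM in KO. Rrm2, its small subunit that is limiting in S phase, was at 3.09, 1.22 and 0.508 RPKM in WT against 3.86, 1.16 and 0.402 RPKM in KO. Tk1, the thymidine kinase of cycling cells, was at 5.81, 4.18 and 3.74 RPKM in WT against 5.37, 4.88 and 4.49 RPKM in KO. At 0 h the ratios of these genes lay between -0.13 (Tk1) and 0.50 (Tyms, 95% counting interval 0.35 to 0.67) on the log2 scale. Tyms and Pcna have named pseudogene copies (Tyms-ps, Pcna-ps1 and Pcna-ps2) and Tk1 overlaps Afmid on the other strand, so that reads could be shared.

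Cyclins and Cdk1 drive entry into mitosis. Cdk1 was at 2.94, 1.25 and 0.697 RPKM in WT against 4.04, 1.27 and 0.932 RPKM in KO. Ccna2, which acts in S phase and G2, was at 1.90, 0.362 and 0.561 RPKM in WT against 2.86, 0.511 and 0.511 RPKM in KO. Their log2 ratios at 0 h were 0.42 (0.20 to 0.67) and 0.54 (0.22 to 0.91), both above the median gene and below 1.5-fold. Ccna2 overlaps Exosc9 on the other strand. The mitotic cyclins Ccnb1 and Ccnb2 were below the filter.

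Birc5 and Aurka stood out among the mitotic kinases and the chromosomal passenger complex, which corrects attachments of chromosomes to the spindle. Birc5 (survivin, a subunit of that complex) was at 3.84, 1.55 and 2.54 RPKM in WT against 7.90, 5.37 and 4.38 RPKM in KO. At each time the KO value of Birc5 thus lay above the WT value. Its log2 ratio was 1.00 at 0 h (95% counting interval 0.80 to 1.23), 1.73 at 3 h (1.48 to 2.11) and 0.67 at 6 h (0.41 to 0.99), the only member that was 1.5-fold or more higher in KO at all 3 times (1 of 23, beside 1.7% of all tested genes), with 0 of 23 lower at all times (beside 0.844%). With a pseudocount of 1 RPKM the ratio of Birc5 was 0.86, 1.32 and 0.53, and the 6 h value was then under 1.5-fold. Aurka, the kinase of spindle poles, was at 1.58, 0.273 and 0.361 RPKM in WT against 3.12, 0.606 and 0.245 RPKM in KO, a log2 ratio of 0.92 (0.51 to 1.43) at 0 h. Aurkb, the kinase of the passenger complex, was at 2.25, 1.13 and 0.377 RPKM in WT against 2.07, 0.497 and 0.374 RPKM in KO. Birc5 and Aurkb thus differed although their proteins work in 1 complex, with log2 ratios of 1.00 and -0.14 (-0.59 to 0.30) at 0 h. Aurka rested on 11 and 13 approximate reads in WT at 3 and 6 h and on 8 in KO at 6 h.

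Both members of the ubiquitin pathway of mitotic exit were higher in KO before the drug. Cdc20, the activator of the anaphase-promoting complex, was at 2.13, 0.409 and 0.119 RPKM in WT against 3.95, 0.604 and 0.0938 RPKM in KO, a log2 ratio of 0.84 (0.46 to 1.28) at 0 h. Ube2c, the ubiquitin-conjugating enzyme that works with this complex, was at 3.55, 1.79 and 0.651 RPKM in WT against 7.60, 1.12 and 0.960 RPKM in KO, a log2 ratio of 1.05 (0.80 to 1.35) at 0 h. The 0 h difference was not kept at 3 h for Ube2c, where KO lay below WT (-0.64). Cdc20 overlaps Elovl1 and Ube2c overlaps Tnnc2, each on the other strand.

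At 0 h the chromosome and spindle genes that passed the filter differed by less than 1.5-fold. Mki67, the proliferation marker Ki-67 that coats mitotic chromosomes, was at 2.54, 1.52 and 0.804 RPKM in WT against 2.77, 1.53 and 1.35 RPKM in KO. Top2a, the topoisomerase that untangles sister chromatids, was at 3.3, 1.19 and 0.498 RPKM in WT against 4.16, 0.757 and 0.597 RPKM in KO. With log2 ratios of 0.10 (-0.07 to 0.27) and 0.30 (0.11 to 0.52) at 0 h, neither reached 1.5-fold. Stmn1 (stathmin, which destabilises microtubules) was at 12.7, 10.7 and 7.45 RPKM in WT against 15.2, 13.3 and 9.73 RPKM in KO, and was the highest division gene. Tacc3, a spindle protein, was at 6.41, 3.08 and 3.5 RPKM in WT against 7.34, 3.74 and 3.82 RPKM in KO. Racgap1, a subunit of centralspindlin in cytokinesis, was at 2.49, 0.754 and 0.841 RPKM in WT against 2.48, 0.910 and 0.704 RPKM in KO. Their log2 ratios at 0 h were 0.24, 0.17 and -0.03. Stmn1 holds the small RNA gene Gm23634, Top2a likewise holds Gm23451, and Tacc3 overlaps Tmem129 on the other strand.

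The 11 members below the filter were Ccnb1, Ccnb2, Plk1, Bub1, Bub1b, Cenpe, Cenpf, Kif11, Kif23, Nusap1 and Prc1, all of them division genes, with means of 0.0874 (Cenpf) to 0.95 RPKM (Plk1). None was at 0 in any library, and their approximate reads at 0 h were 36 to 156 in WT and 46 to 159 in KO. Of the 11, 10 lay above the median gene in KO against WT at 0 h, Bub1b being the exception at -0.56, and 7 and 3 did at 3 and 6 h. Ccnb2 (1.25, counting interval 0.75 to 1.93) and the kinetochore motor Cenpe (0.75, 0.47 to 1.23) were past 1.5-fold at 0 h. Ccnb2 was at 1.09, 0.273 and 0.363 RPKM in WT against 2.79, 0.611 and 0.212 RPKM in KO. Over all 23 division genes 20 lay above the median gene at 0 h with a median log2 ratio of 0.38, and 10 did at 6 h with a median of -0.10. Detection of weak genes shifted the same way over the whole sheet. At 0 h 8291 genes were at 0 in WT and 7324 in KO, and at 6 h 7633 and 8419 were. How far this enters the counts of the weak members was not tested.

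**Figure D2:**
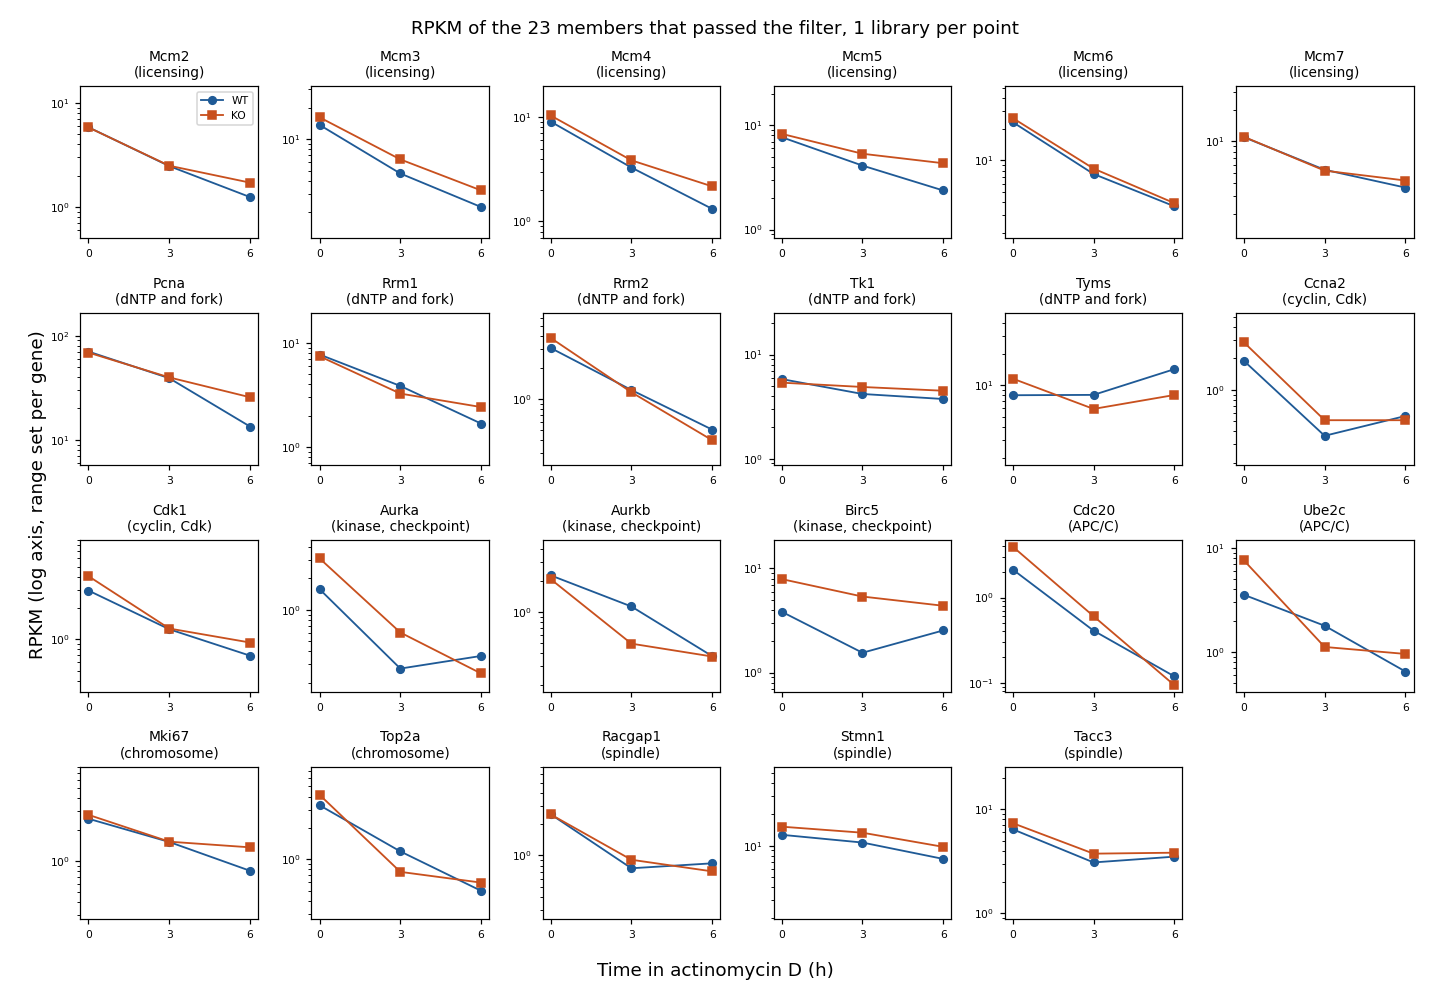
RPKM (y axis, log scale with its own range per gene) of the 23 members that passed the filter against time in actinomycin D (x axis, h), for WT (circles) and KO (squares), with 1 library per point. The Birc5 lines stay apart at all 3 times and the Tyms lines cross, while those of Mcm2, Mcm6 and Mcm7 nearly coincide.

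Most of the neutrophil markers were also higher in KO at 0 h. Of 10 neutrophil genes in the sheet, 7 were 1.5-fold or more higher in KO at 0 h (S100a8, S100a9, Camp, Ltf, Ngp, Retnlg and Cxcr2) and 1 was lower (Mmp8), with summed levels of 7590 RPKM in WT and 14566 RPKM in KO at 0 h, 8328 and 10717 RPKM at 3 h, and 7037 and 7097 RPKM at 6 h. Mmp8 was lower at all 3 times (-0.61, -1.31 and -1.43), and Lcn2 and Mmp9 were under 1.5-fold at 0 h (0.32 and 0.46). The median log2 ratio of the neutrophil list was 1.45, 1.01 and 0.03 at 0, 3 and 6 h, and that of the 12 division genes was 0.36, 0.26 and 0.08. Of 9 genes of granulocyte precursors, 3 passed the filter and all 3 were higher in KO at 0 h (Cebpe, Fcnb and Chil3). The list summed to 226 RPKM in WT and 359 RPKM in KO, of which Chil3 alone gave 215 and 338 RPKM. Of those below the filter, Mpo and Elane were at 0.499 and 0.077 RPKM in WT before the drug, against 0.583 and 0.165 RPKM in KO. The log2 ratios at 0 h were 0.17 (Mpo), 0.56 (Elane), 0.35 (Prtn3), 0.47 (Ctsg), 0.43 (Gfi1) and 0.89 (Ms4a3). Ms4a3 stayed higher at 3 and 6 h (1.84 and 0.68), as did Prtn3 (2.10 and 0.89). Elane and Ctsg were at 0 in both 6 h libraries. The part of these cells in the division gene result was not tested, and 1 culture per genotype cannot show whether they are linked. In bulk RNA, more cells in division and more mRNA per dividing cell cannot be told apart. Of 4 progenitor markers that passed the filter (among them Kit and Flt3), 0 differed by 1.5-fold at 0 h. Below the filter, Cd34 was higher in KO at 0 h (0.896 RPKM in WT, 1.49 RPKM in KO, log2 ratio 0.65). Hlf and Mecom, also below it, were under 1.5-fold (-0.16 and 0.11). The list summed to 57.1 RPKM in WT and 56.9 RPKM in KO, with Kit at 20.2 and 15.2 RPKM and Flt3 at 27 and 30.8 RPKM. Of 10 macrophage markers that passed, 3 were higher in KO at all 3 times (C1qa, Fcgr1 and Apoe). Of 3 lymphoid markers that passed 0 differed at 0 h. Of 4 markers of erythroid cells, mast cells and basophils that passed, 2 were lower in KO at 0 h (Hba-a1 and Cpa3).

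At 3 h no replication gene differed by 1.5-fold, and at 6 h 3 of them were higher in KO and 1 was lower. At 3 h, 2 of 23 members were 1.5-fold or more higher in KO (Birc5 and Aurka, beside 6.29% of all tested genes) and 3 were lower (Top2a, Aurkb and Ube2c, beside 4.34%). At 6 h, 5 of 23 were higher (Mki67, Birc5, Mcm4, Mcm5 and Pcna, beside 8.79%) and 1 was lower (Tyms, beside 4.52%). Pcna had a log2 ratio of -0.06 (-0.14 to 0.03) at 0 h, 0.03 (-0.09 to 0.14) at 3 h and 0.84 (0.66 to 1.03) at 6 h, resting on 394 and 695 approximate reads at 6 h. Mcm5 had log2 ratios of 0.08, 0.37 and 0.75 (0.49 to 1.08). Tyms went from 0.50 at 0 h to -0.44 at 3 h and -0.90 (-1.08 to -0.75) at 6 h. The median of the replication genes was 0.03 at 3 h and 0.34 at 6 h. The 6 h values rest on the KO library that stood apart in its ERCC factor.

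**Figure D3:**
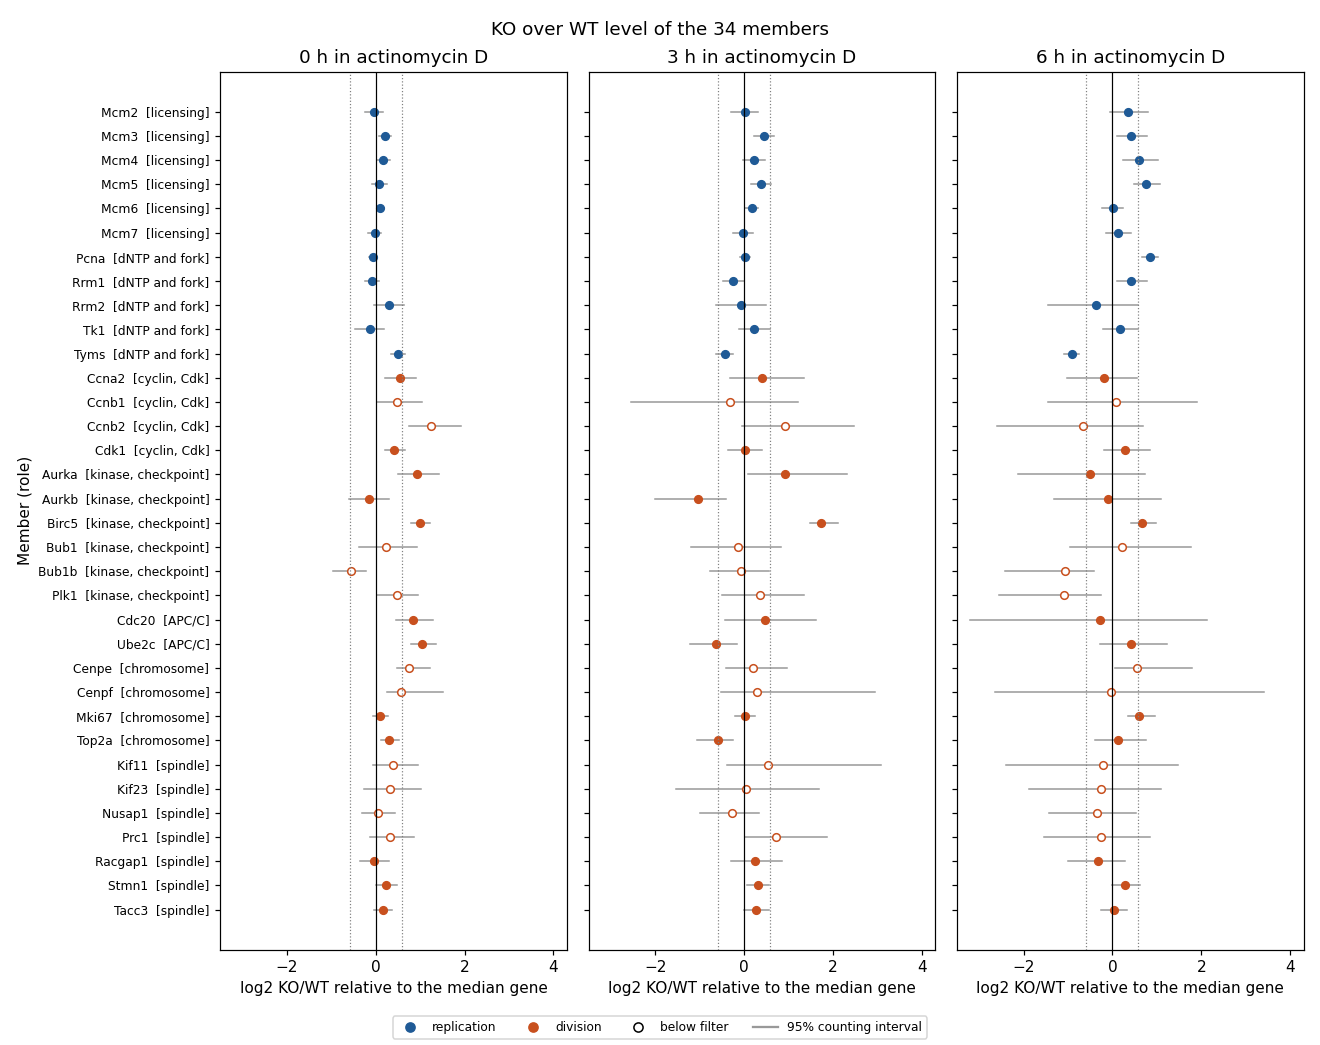
Log2 ratio of KO to WT relative to the median gene (x axis) for all 34 members (y axis, with role) at 0, 3 and 6 h of actinomycin D, with 95% counting intervals as lines. Filled points passed the filter, open points did not, and dotted lines mark 1.5-fold. At 0 h the replication genes other than Tyms lie near 0 and most division genes to the right, and the intervals widen with time.

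Under actinomycin D 17 of 23 members had less mRNA left than the median gene at 3 h in WT, and 18 at 6 h. In KO 17 and 16 members lay below the median gene. Relative to that gene, 4 of 23 had at least 1.5-fold less left in WT at both 3 and 6 h (Mcm3, Mcm6, Aurka and Cdc20, beside 18.9% of all tested genes) and 1 had more (Tyms, beside 20.6%). In KO, 9 had less left (Top2a, Cdk1, Ccna2, Rrm2, Mcm6, Aurka, Aurkb, Cdc20 and Ube2c, beside 18.1%) and 1 had more (Tk1, beside 20.2%). The WT count of members with at least 1.5-fold less left was near the share of all tested genes. Of the 12 division genes 2 had less left in WT and 7 in KO, and of the 11 replication genes 2 in each. Cdc20 was the member with the least left, 6.88% and 1.09% of its 0 h amount at 3 and 6 h in WT and 3.71% and 0.741% in KO on the ERCC scale, resting on 4 and 3 approximate reads at 6 h. Pcna had 19.9% and 3.70% left in WT and 14% and 11.6% in KO. Stmn1 kept 30.1% and 11.4% in WT and 21.2% and 19.9% in KO. Ube2c had 18.1% left at 3 h in WT and 3.56% in KO. The shares for KO use the same 0 h library in which Ube2c, Aurka and Cdc20 stood above WT, so a high 0 h level and a low share left are not separate observations.

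Half-lives of the members were shorter than those of most genes. As in the methods of the study, each came from the mean of the loss rates to 3 h and to 6 h, which share the 0 h library. The median was 1.26 h in WT against 1.18 h in KO for the 23 members, against 1.45 and 1.38 h for all tested genes, with 4 of 23 above the median gene in WT and 7 in KO. Which genotype had the shorter median was not stable. Without the 3 h libraries the members' median was 1.40 h in WT and 1.77 h in KO. For the 8 members with a mean of at least 5 RPKM it was 1.31 and 1.33 h. The median tested gene also changed order without the 3 h libraries, at 1.71 h in WT and 2.2 h in KO. It did not at a mean of at least 5 RPKM (1.51 and 1.43 h). Replication genes had medians of 1.27 h in WT against 1.24 h in KO, and division genes 1.26 and 1.06 h. Half-lives were shorter in KO than in WT for 11 of 12 division genes and 5 of 11 replication genes. After the KO rates were shifted so that the median gene had the WT rates, these counts were 7 of 12 and 2 of 11.

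Cdc20 had the shortest half-life in both genotypes, 0.928 h in WT (95% counting interval 0.791 to 1.12) and 0.789 h in KO (0.692 to 0.918). Aurka was next in WT at 1.04 h (0.877 to 1.28), which its interval does not separate from Cdc20. Among the longest half-lives, Stmn1 had 1.82 h in WT (1.66 to 2.02) and 1.77 h in KO (1.62 to 1.94), and Tk1 1.74 h (1.55 to 1.99) and 1.91 h (1.68 to 2.21), both pairs with intervals that overlap. The 6 Mcm genes lay between 1.07 h (Mcm6) and 1.37 h (Mcm5) in WT and between 1.03 and 1.51 h in KO. Mcm5 and Mcm6 in KO had intervals that do not overlap (1.42 to 1.61 h and 1.00 to 1.06 h). Rrm1 and Rrm2 were at 1.27 and 1.17 h in WT and at 1.24 and 0.995 h in KO. Ube2c was at 1.26 h (1.14 to 1.42) in WT and 0.860 h (0.802 to 0.927) in KO, a ratio of 0.701 after the shift, short of the 1.5-fold that was asked for.

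Tyms was the only member whose decay differed by 1.5-fold or more, and it was faster in KO (1 of 23, beside 0.938% of all tested genes). None was slower in KO (0 of 23, beside 1.01%). Its half-life was 2.68 h (2.44 to 2.98) in WT, longer than that of 93.0% of the tested genes, and 1.46 h (1.39 to 1.55) in KO. On ERCC-scaled amounts without the shift Tyms was again the only one faster (beside 0.787%) and 0 were slower (beside 0.588%). The scaled amount of Tyms left in WT was 36.2% at 3 h and 34.5% at 6 h, so that nearly all of its loss came in the first 3 h, and in KO it was 12.4% and 21.7%.

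**Figure D4:**
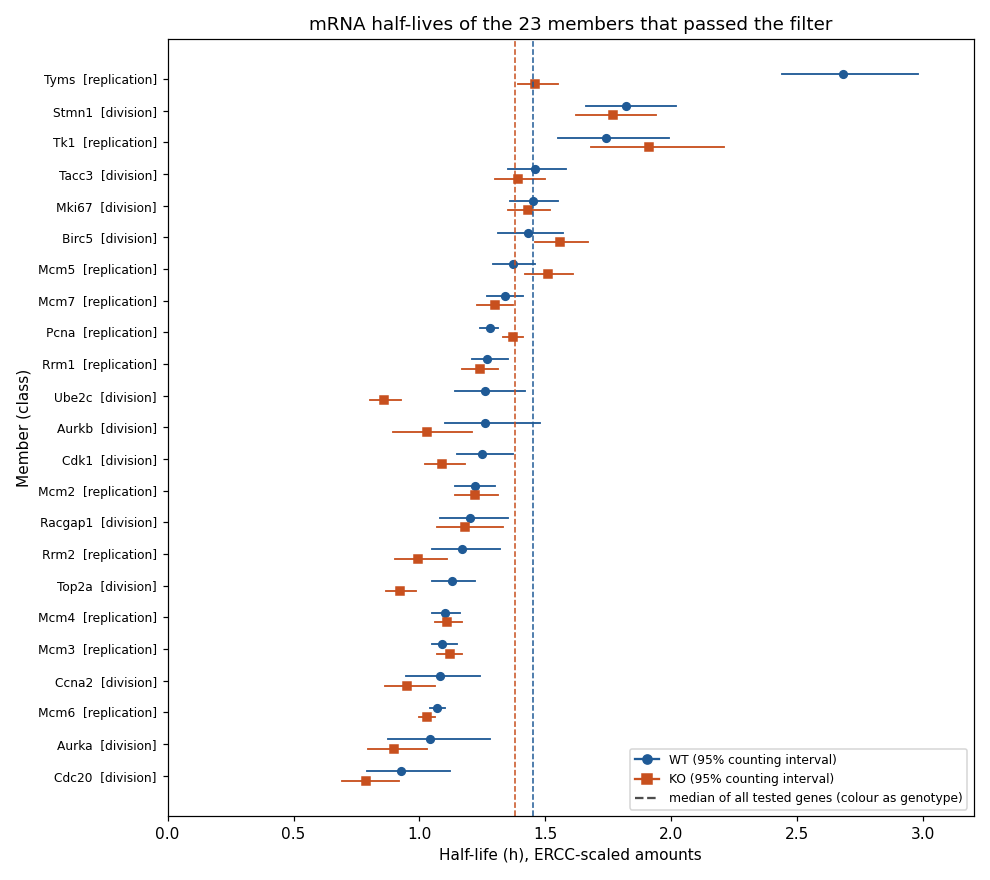
Half-lives in h (x axis, ERCC-scaled amounts) of the 23 members that passed the filter (y axis, ordered by WT), for WT (circles) and KO (squares), with 95% counting intervals as lines and the median of all tested genes as dashed lines. Most members lie left of the median gene. The WT and KO intervals lie furthest apart for Tyms, and those of Ube2c, Top2a and Pcna do not overlap either.

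Other cell cycle genes, from lists that hold no member, gave the setting. Of 34 further replication genes 28 passed the filter. At 0 h 1 of them was 1.5-fold or more higher in KO (Gins1) and 0 were lower (beside 4.46% and 2.92% of all tested genes). Their median log2 ratio was 0.01 (-0.13 relative to total RPKM). At 6 h 9 of the 28 were higher and 0 lower (beside 8.79% and 4.52% of all tested genes), with a median of 0.23. The values reached 1.60 for Cdc45, a fork helicase subunit, and 0.96 for Gins4, and rest on the KO library that stood apart. Of 40 further mitosis genes 17 passed, 2 were higher at 0 h (Cdca3 and Cdc25b) and 0 lower, and the median was 0.09 (-0.05 relative to total RPKM). Cdc25b, a phosphatase that activates Cdk1, was the only one of them higher at all 3 times, at 0.78, 0.61 and 0.72. The RPKM of Cdc25b was 1.87, 0.542 and 0.235 in WT and 3.34, 0.879 and 0.488 in KO. Median half-lives were 1.32 h in both genotypes for the replication list and 1.28 and 1.27 h for the mitosis list.

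Of the genes that hold cells out of the cycle, 2 were at higher RPKM than any member. Cdkn1a (p21, which blocks Cdk2) was at 241, 54.5 and 35.3 RPKM in WT against 250, 54.5 and 37.1 RPKM in KO, and the antiproliferative Btg1 at 342, 61.2 and 37.2 RPKM in WT against 405, 67.9 and 45.7 RPKM in KO. The 9 inhibitors that passed the filter decayed with median half-lives of 0.974 h (WT) and 0.929 h (KO). In WT 6 of 9 and in KO 7 of 9 had at least 1.5-fold less left than the median gene at both 3 and 6 h. The shares of all tested genes were 18.9% in WT and 18.1% in KO. At 0 h 2 of the 9 were higher in KO (Cdkn2c at 0.93 and Cdkn2d at 0.77) and 0 lower. On the G1 list (cyclins of the D, E and G types, Cdk2, Cdk4, Cdk6 and Cdc25a) 0 of 10 differed by 1.5-fold at 0 h. The most expressed at 0 h were Ccng1 (a G type cyclin) at 81.3 RPKM in WT and 64.6 RPKM in KO, and Ccnd3 at 76.1 and 109 RPKM. Of 17 genes of the E2F, Rb, DREAM and Myb families that passed, 1 was higher at 0 h (Mxd1, 0.63) and 1 lower (E2f6, -0.81). Of all tested genes 4.46% and 2.92% were, and the median of the 17 was 0.01. Below the filter, Myc was lower in KO at 0 h (3.18 RPKM in WT, 1.26 RPKM in KO, log2 ratio -1.29). Foxm1, E2f7, E2f8 and Mybl2, also below it, were under 1.5-fold (0.57, -0.07, -0.28 and -0.02). E2f4 and Rbl2, repressors of the DREAM complex, had 28.7 and 19.6 RPKM in WT at 0 h, against 29.8 and 18.8 RPKM in KO.

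The genes whose course over the 6 libraries was most like the median course of the members were on none of the cell cycle lists. By Euclidean distance of centred log2 values among 6779 genes, the nearest were Cpt1a (0.0893), Thoc3 (0.0893), Smim19 (0.0903), Ube2d2a (0.0949), Fam103a1 (0.124) and Pak2 (0.133). Cpt1a, the carnitine acyltransferase of mitochondrial fatty acid import, was at 15.3, 6.48 and 3.55 RPKM in WT against 16.2, 6.51 and 4.63 RPKM in KO.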

How the data were processed

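The authors deposited RPKM, 1 column per library, which the submitters' processing notes tie to bcl2fastq, TopHat2 2.0.14, Cuffnorm and the mm10 genome. For the gene annotation and the strand option: not given in the sources used here. Each deposited column holds RPKM plus 1 times a factor (its lowest value), and RPKM was recovered as value over lowest value minus 1. The authors' 2 lifetime columns, derived from these, were not used. ERCC factors are medians over 75 of 92 ERCC transcripts. RNA was measured against ERCC RNA added per total RNA, so scaled amounts are per total RNA. Ratios used a pseudocount of 0.1 RPKM, which understates differences of weakly expressed genes, a filter of mean 1 RPKM, and a threshold of 1.5-fold (rates under 0.02 per h set to 0.02). With 1 library per group no test was possible. Counting intervals (95%, exact binomial for ratios, from the Poisson variance of the reads for half-lives) use approximate reads from transcript lengths and cover counting error only, and reads without molecular identifiers are not independent molecules. Gene positions come from GENCODE vM21 and promoter windows from RefSeq. Calculations were done in Python 3.11.15 (pandas 2.3.3, numpy 2.4.6, scipy 1.17.1) and tested on simulated data.

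Members and lists were chosen with earlier results of these data known. All members that passed the filter are given in full and the others by name. Of other lists at most 4 genes at the ends of a value are named, with all of any count up to 5, and the 6 genes nearest to the members' median course (mean of at least 5 RPKM). Other genes named as examples (markers, Btg1, Cdkn1a, Ccng1, E2f4, Rbl2, the neutrophil genes) were chosen after their values were seen. So were the genes of the E2F list below the filter. Alternatives were the pseudocount, the filter, the reference of the ratio, the ERCC factor and the times used.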

Additional observations from a re-analysis of the deposited data

Results flagged for a closer look

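In 2 division genes the difference between KO and WT changed direction with time by 1.5-fold or more on both sides. Ube2c had a log2 ratio relative to the median gene of 1.05 at 0 h and of -0.64 at 3 h. Ccnb2, which was below the filter, went from 1.25 (0 h) and 0.93 (3 h) to -0.66 (6 h), the 6 h ratio resting on 11 approximate reads in WT and 6 in KO. With 1 library per genotype and time the change of direction was not tested.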

How the results depend on the processing

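No paired analysis was possible because each genotype and time had 1 library and no replicate numbers were shared. Of the values for whole comparisons 77 kept their size and 52 moved. The members' median half-life was shorter in KO as reported. It was longer in KO without the 3 h libraries and at a mean of at least 5 RPKM (1.31 h in WT, 1.33 h in KO). The median tested gene also changed order without the 3 h libraries (1.71 h in WT, 2.2 h in KO), but not at that mean (1.51 and 1.43 h). The cause was not tested, except that scaling by ERCC transcripts or by total RPKM and the lower filter change the reference gene by construction.

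With a pseudocount of 1 RPKM, 0 members were higher in KO at all times, 1 higher and 0 lower at 3 h and 2 higher at 6 h, 2 and 4 had less left in WT and KO, and the WT half-life was 1.45 h. With no filter, 4 were higher at 3 h and 3 lower at 6 h, 0 had more left in either genotype, and 18 and 22 had less. With a mean of at least 5 RPKM, 0 were higher at 0 h and at all times, 0 higher and 0 lower at 3 h and 2 higher at 6 h, and in KO 0 had more and 1 less left. On amounts scaled by ERCC transcripts, 10 were higher at 0 h (median log2 ratio 0.53), 2 at all times and 22 at 6 h with 0 lower, and 0 had more and 23 less left in each genotype. Relative to total RPKM, 4 were higher at 0 h with a median log2 ratio of 0.03. There 0 had more left in either genotype, and 20 and 18 had less. On RPKM the median gene had log2 ratios to 0 h of -0.91 and -1.14 in WT and -0.93 and -1.05 in KO. Shares of all tested genes on the ERCC and total RPKM scales were not counted, so these counts are no result about the members. The ERCC factor from summed RPKM gave a WT half-life of 1.40 h.

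Without the 6 h libraries 2 members were higher in KO throughout, 2 had more left in each genotype, the KO half-life was 0.889 h and 2 decayed faster in KO (Tyms and Ube2c). Without the 3 h libraries 13 had less left in WT, and the half-lives were 1.40 h in WT and 1.77 h in KO. From 3 to 6 h alone the WT half-life was 1.74 h, and KO had no value since 12 of 23 members showed no decay. The median tested gene in KO showed none either (rate of -0.09 per h), and 20 of 23 members had a higher rate than it. Relative to the median gene, 5 members were faster in KO (Birc5, Ccna2, Tyms, Aurka and Racgap1) and 3 slower (Top2a, Aurkb and Ube2c). Tyms was called faster in KO in all of these decay settings. For the other lists, with alternatives chosen after seeing the data, the median log2 ratio at 0 h of the replication, mitosis and E2F lists was 0.37, 0.45 and 0.37 on the ERCC scale and -0.13, -0.05 and -0.13 relative to total RPKM, and -0.09 for the E2F list at a mean of at least 5 RPKM. As reported these medians were 0.01, 0.09 and 0.01, so their sign changed with the scaling. The E2F list also changed sign with no filter (-0.02), and the G1 list went from -0.04 to 0.02 with no filter and 0.33 on the ERCC scale. Depth limits the weakest members, with as few as 2 reads in WT and 3 in KO at 6 h.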
